A study of Mus musculus with 48 samples.

Results

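The Cyp2 family of cytochrome P450 genes was read across a mouse study of liver spheroids grown on the iris. The members are the genes of the table of iris-corrected expression values whose symbol is Cyp2 followed by a subfamily letter and a number, leaving out Cyp2e1 and Cyp2f2. That table holds genes with a mean above 1 TPM (a transcript level scaled by gene length and by the total of the sample), and 36 of its 20702 genes are members. A further 10 Cyp2 genes of the count table lay outside it, and none of them exceeded 1.48 TPM in any sample. The choice used the mean level over the 13 samples that are not irises and no difference between groups. A gene read in the iris alone could therefore not enter. For Cyp2j13 the choice rested on the deposited values of a single explant, because its mean was 0.792 TPM once that explant was recalculated.

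Cytochromes P450 are haem enzymes of the endoplasmic reticulum that insert oxygen into drugs, toxins, steroids, fatty acids, bile acids and vitamin D, with electrons handed over by the reductase Por. The Cyp2 family is the largest P450 family of the mouse, and most of its genes lie in clusters of recent duplicates that are read mainly in hepatocytes. Several members are known for their control: Cyp2b10, Cyp2c29, Cyp2c37 and Cyp2c55 respond to the nuclear receptor CAR (Nr1i3), and the rhythm of growth hormone keeps Cyp2a4, Cyp2b9, Cyp2b13, Cyp2c40 and Cyp2c69 higher in females and Cyp2d9 higher in males.

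Hepatocyte-enriched cells from albino mice, C57BL/6N and wild type by the labels but an albino strain on B6/J by the methods of the study, were aggregated into spheroids in a medium that contained dexamethasone and insulin, and spheroids were transplanted into the anterior chamber of the eye, where they engraft on the iris. Bulk RNA was sequenced from 5 explants (1, 2, 4, 5 and 6), taken 2 months after transplantation and still holding iris of the recipient, from 3 irises, 3 livers, 3 preparations of isolated hepatocytes and cultured spheroids (2 samples). All 5 groups carry the same strain and genotype labels, without an age, a sex or an animal for any sample. Each sample was sequenced as 3 technical libraries, which were summed. The study speaks of biological replicates, but neither it nor the labels say which animals or cultures each sample came from. A p-value therefore measures only the spread between these samples, which may be partly technical.

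Totals ran from 2718518 to 6789648 counts per sample. The iris share that the deposited correction removed from the explants was 82, 68, 81, 72 and 59% in explants 1, 2, 4, 5 and 6, so the graft supplied the smaller part of every explant library, and a corrected value carries the counting error of that smaller part. The deposited column of explant 4 did not follow the formula of the methods and was recalculated with it. Estimated by regression instead, the iris shares were larger, at 89.8, 74.5, 86, 82 and 66.9% in the same order. A larger share gives a higher corrected value for a gene that stands above the iris level. Corrected levels given below therefore hold for the deposited shares. Hepatocyte markers were present in every group: their summed level over 10 genes was 14442 to 15627 TPM in livers, 14897 to 18288 in preparations, 15021 to 16178 in spheroids, 18414 to 26729 in corrected explants and 1560 to 1852 in irises, with no marker at 0. Xist did not exceed 0.373 TPM in any of the 16 samples and Ddx3y, a gene of the Y chromosome, lay between 35.1 and 85.8 TPM in all of them. In bulk RNA, fewer cells of a type and less RNA per cell cannot be told apart.

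The 36 members fall into 9 subfamilies, and each subfamily lies on 1 chromosome: 4 Cyp2a, 3 Cyp2b, Cyp2g1, Cyp2r1 and Cyp2s1 on chromosome 7, 13 Cyp2c on chromosome 19, 8 Cyp2d on chromosome 15, 4 Cyp2j on chromosome 4 and Cyp2u1 on chromosome 3 (mm10). Neighbours are alike enough to compete for reads. The coding sequences of Cyp2a4 and Cyp2a5 are 98.45% identical (23 of 1482 bases differ) and those of Cyp2c50 and Cyp2c54 95.24% (70 of 1470 bases). The stretches of 60 coding bases where each pair differs most are printed below from the GENCODE transcripts, with capitals at the bases that differ, because reads over such stretches are what tells the members of a pair apart. Cyp2a4 (chr7:26307190-26315088, + strand) and Cyp2a5 (chr7:26835305-26843548, + strand) are shown from coding base 596 to 655, and Cyp2c50 (chr19:40089688-40113950, + strand) and Cyp2c54 (chr19:40037941-40073811, - strand) from coding base 791 to 850.
Cyp2a4: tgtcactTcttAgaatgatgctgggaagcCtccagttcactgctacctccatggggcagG
Cyp2a5: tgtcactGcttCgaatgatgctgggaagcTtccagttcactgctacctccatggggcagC
Cyp2c50: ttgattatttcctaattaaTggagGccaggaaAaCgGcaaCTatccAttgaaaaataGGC
Cyp2c54: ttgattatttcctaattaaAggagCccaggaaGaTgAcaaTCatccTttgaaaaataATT

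Of all stretches of 50 bases in a member's transcripts, the share found word for word in another gene was 72.1% for Cyp2c40, 54.8% for Cyp2c69, 52.8% for Cyp2c67, 43.3% for Cyp2c68, 40.8% for Cyp2a5, 38% for Cyp2a4, 30.7% for Cyp2c50, 30.1% for Cyp2c37 and 25.7% for Cyp2c54. It was 10.2% for Cyp2b10, 0.514% for Cyp2c55 and 0 for Cyp2c23, Cyp2c70, Cyp2j9, Cyp2r1 and Cyp2s1. Reads that map to several places were not counted, so the levels of the first set are uncertain and those of the second set are little touched by it. Strand was not used in counting, and 10.5% of the exon bases of Cyp2u1 lie under a gene of the opposite strand.

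The 250 bases before the transcription start are shown for 4 members on which the results turn: Cyp2b10, which took the largest increase in spheroids, Cyp2c37 and Cyp2c50, which were lower there together, and Cyp2c55, which was higher in explants. They are from RefSeq (GRCm38.p6), 5′ to 3′, at chr7:25897408-25897657, chr19:39992174-39992423, chr19:40089429-40089678 and chr19:39006769-39007018, all on the + strand. Capitals mark TATAAA, which Cyp2c55 holds, and its variant CATAAA, which Cyp2b10 holds at 2 places and Cyp2c37 and Cyp2c50 at 1 place each.
Cyp2b10: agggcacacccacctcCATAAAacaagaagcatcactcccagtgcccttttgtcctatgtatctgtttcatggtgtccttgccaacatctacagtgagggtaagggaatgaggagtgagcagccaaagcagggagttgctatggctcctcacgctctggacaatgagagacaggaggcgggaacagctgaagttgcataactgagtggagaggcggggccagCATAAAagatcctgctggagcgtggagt
Cyp2c37: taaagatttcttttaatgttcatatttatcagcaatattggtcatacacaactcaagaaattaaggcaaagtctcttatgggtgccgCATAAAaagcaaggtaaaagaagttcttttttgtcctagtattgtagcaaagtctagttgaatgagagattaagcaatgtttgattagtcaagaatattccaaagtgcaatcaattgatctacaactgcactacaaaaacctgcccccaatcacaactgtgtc
Cyp2c50: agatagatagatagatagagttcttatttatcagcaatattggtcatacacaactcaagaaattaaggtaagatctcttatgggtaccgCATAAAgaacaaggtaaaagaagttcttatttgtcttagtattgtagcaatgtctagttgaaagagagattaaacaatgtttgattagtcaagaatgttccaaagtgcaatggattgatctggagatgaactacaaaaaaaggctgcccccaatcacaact
Cyp2c55: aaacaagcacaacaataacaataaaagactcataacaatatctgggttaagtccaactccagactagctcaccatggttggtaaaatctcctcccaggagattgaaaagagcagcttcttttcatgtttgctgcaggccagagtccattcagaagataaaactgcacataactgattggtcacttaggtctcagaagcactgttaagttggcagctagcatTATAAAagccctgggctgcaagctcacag

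RefSeq windows of 300 bases, from 250 before to 50 after the start, were at hand for 29 of the 36 members, 31 windows in all. On either strand, TATAAA stood in 18 of the 31 member windows and in 13.6% of all 32851 windows, and CATAAA in 4 of 31 and 11.9%. These motifs differ in their first letter, so none of their matches coincide. The nuclear receptor motif AGGTCA stood in 9 of 31 member windows and 16.3% of all, the forkhead motif TGTTTAC in 4 of 31 and 3.65%, and the STAT motif TTCNNNGAA in 0 of 31 and 8.3%. These windows were 98% identical between Cyp2a4 and Cyp2a5, 99.3% between Cyp2b9 and Cyp2b13, and 88% between Cyp2c37 and Cyp2c50. A match says only that the letters are there.

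The Cyp2c and Cyp2d genes carried most of the Cyp2 level in livers, preparations, spheroids and grafts. The members summed to 8252, 9503 and 9629 TPM in livers 1 to 3, to 8716, 12272 and 11055 TPM in hepatocyte preparations 1 to 3, to 7398 and 9385 TPM in the spheroids and to 5483, 6571, 5830, 5894 and 7577 TPM in corrected explants 1, 2, 4, 5 and 6. By the deposited iris shares every corrected explant lay below every liver. The larger shares from regression do not keep that order, because with them the formula puts explant 1 above liver 1. The irises held 391, 385 and 374 TPM.

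Cyp2c genes took 37.3% ± 3.12 of the summed level in livers (SD, n = 3), 43.3% ± 6.30 in preparations (n = 3), 28.98% ± 1.31 in spheroids (n = 2) and 39.7% ± 2.39 in corrected explants (n = 5). Cyp2d genes took 37.4, 36.8, 31.7 and 35.2% in the same order, and Cyp2a genes 12.9, 7.86, 15.1 and 13.1%. The Cyp2b share was 2.06% in livers, 0.247% in preparations, 19.99% in spheroids and 0.599% in explants, while the Cyp2j share was 9.06, 10.4, 3.14 and 9.55%. The Cyp2b share of the livers came from liver 1, at 5.83%, where livers 2 and 3 had 0.186 and 0.156%, below the mean of the explants. The spheroids had the largest mean Cyp2b share and the smallest mean Cyp2c, Cyp2d and Cyp2j shares of the 4 liver-derived groups, and these shares were not tested.

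**Figure D1:**
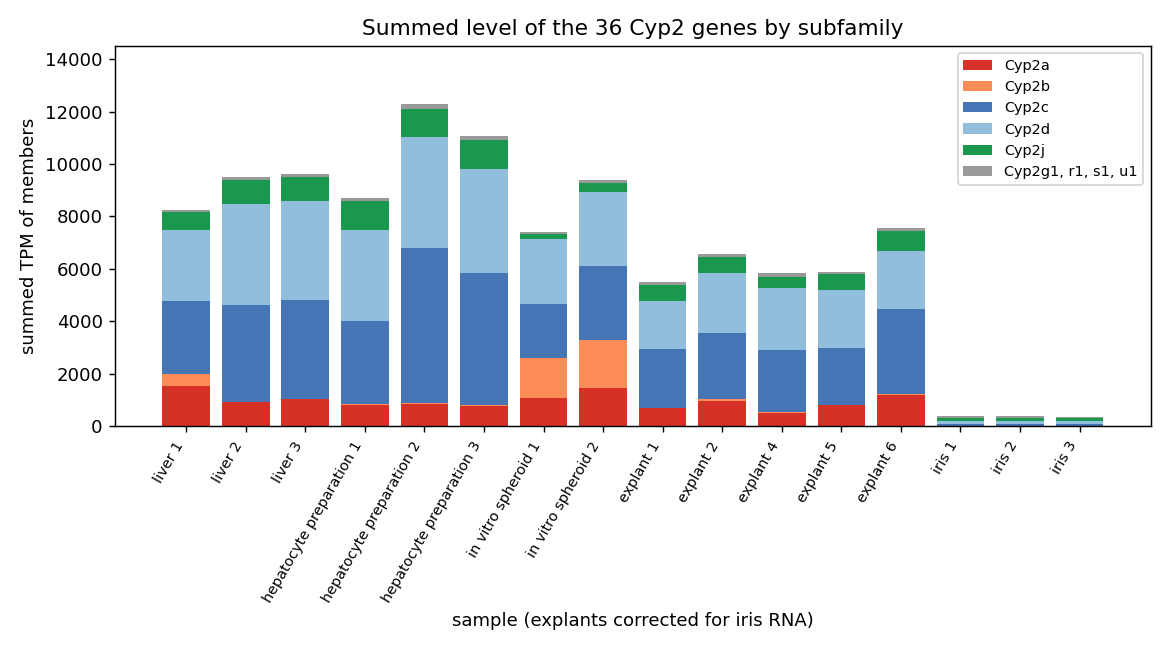
Stacked bars give the summed TPM of the 36 Cyp2 genes in each of the 16 samples, divided by subfamily, with explants corrected for iris RNA. By the deposited iris shares, corrected explants (5483 to 7577 TPM) stand below the livers (8252 to 9629 TPM), the Cyp2b part is widest in the spheroids, and the irises stay under 400 TPM.

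In liver the member with the highest level was Cyp2d26, at 1226, 1139 and 1206 TPM in livers 1 to 3. It was at 1120, 1256 and 1282 TPM in preparations, 832 and 1023 TPM in spheroids, 704, 869, 717, 713 and 778 TPM in corrected explants and 13.1, 19.5 and 14.4 TPM in irises. Explants lay below livers and preparations without overlap, and irises below all. Next in liver by mean came Cyp2d9, a testosterone hydroxylase, at 853 ± 422 TPM (SD, n = 3), Cyp2c29, an arachidonic acid epoxygenase, at 748 ± 147, Cyp2j5, another epoxygenase, at 721 ± 133, Cyp2d10 at 689 ± 52.6, Cyp2c23 at 638 ± 70.9, Cyp2a12, which hydroxylates bile acids, at 638 ± 66.9 and Cyp2c70, which makes muricholic acids, at 605 ± 112. From Cyp2d9 downward these neighbours in the order differed by less than their spread.

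Cyp2a12 was at 708, 574 and 631 TPM in livers, 590, 462 and 706 TPM in preparations, 884 and 1214 TPM in spheroids and 507, 761, 285, 559 and 764 TPM in explants. Cyp2c70 was at 595, 722 and 498 TPM in livers, 497, 1179 and 1311 TPM in preparations, 612 and 728 TPM in spheroids and 878, 769, 617, 752 and 1031 TPM in explants. Cyp2r1, the vitamin D hydroxylase of liver, was at 58.1, 66.9 and 81.3 TPM in livers, 80.3, 92.6 and 77.7 TPM in preparations, 50.3 and 109 TPM in spheroids and 33.3, 69.4, 28.7, 59.2 and 103 TPM in explants. Livers, preparations and explants overlapped for all 3 of these genes, while for Cyp2a12 both spheroids lay above every other sample. None of the 3 was called in any comparison among livers, preparations, spheroids and explants. At the low end, Cyp2g1, known from olfactory mucosa, stayed at or below 17.6 TPM, Cyp2s1, known from epithelia outside the liver, at or below 8.48 TPM and Cyp2j13 at or below 7.85 TPM in every sample.

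**Figure D2:**
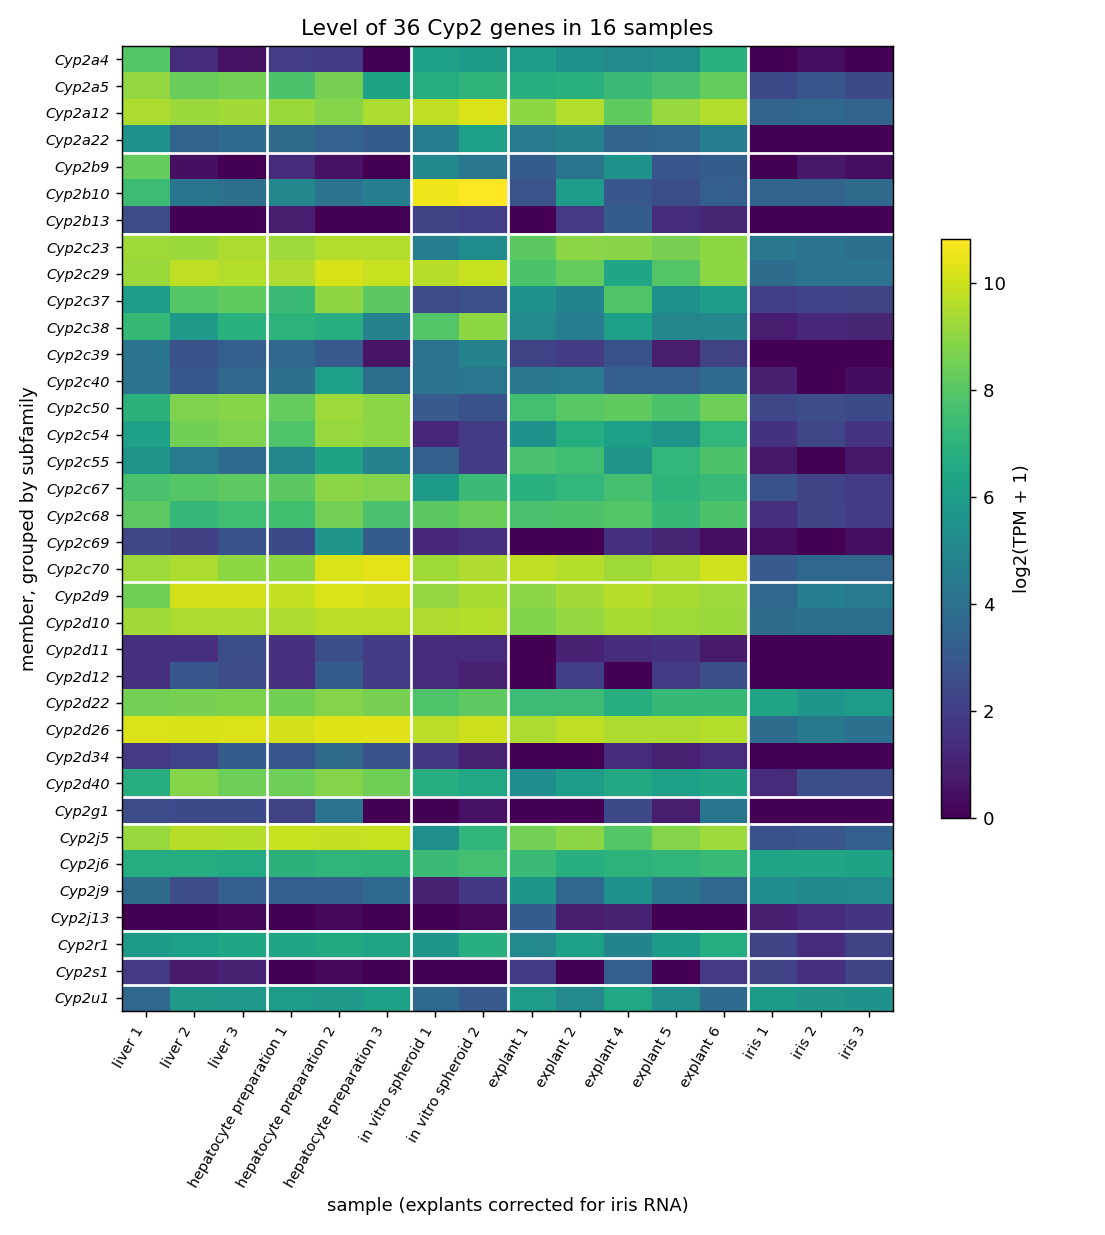
The colour of each cell gives log2(TPM + 1) of 1 Cyp2 gene (row, grouped by subfamily) in 1 sample (column), with explants corrected for iris RNA. Cyp2b10 is brightest in the spheroids (1487 and 1798 TPM), where Cyp2c37, Cyp2c50 and Cyp2c54 are dark, and Cyp2a4 and Cyp2b9 are bright in liver 1 but dark in livers 2 and 3.

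The spheroids kept in vitro were compared with the hepatocyte preparations, the kind of cells they are made from, with edgeR's quasi-likelihood test on counts. A gene was called at a Benjamini-Hochberg adjusted p below 0.05 and a log2 fold change beyond 1 in size. Among 30 members that passed the count filter, 5 were called higher and 13 lower, beside 8.13% and 9.11% of all 12247 genes tested. The median log2 fold change was -1.08 over the members and 0.01 over all genes. By subfamily, 2 of 4 tested Cyp2a and both tested Cyp2b genes were higher, 1 Cyp2c gene was higher and 7 of 13 were lower, and 3 of 6 Cyp2d, 2 of 3 Cyp2j and the only Cyp2u gene were lower.

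Cyp2b10 (chr7:25897620-25926624), the standard reporter of CAR activation, was at 30.8, 16.6 and 24.7 TPM in preparations 1 to 3 and at 1487 and 1798 TPM in the 2 spheroid samples, from 93, 44, 58, 4130 and 4718 counts. The spheroids lay far above all preparations (log2 fold change 5.77, SE 0.32, edgeR adjusted p = 6.85e-05). Cyp2b9 rose from 1.49, 0.424 and 0 TPM to 32.4 and 19.3 TPM (4.79, SE 0.65, edgeR adjusted p = 0.0022). Cyp2a4, a steroid hydroxylase, rose from 2.85, 2.78 and 0 TPM to 70.8 and 57.7 TPM (4.66, SE 0.54, edgeR adjusted p = 0.00133). No sample of one group reached the other for either gene. Cyp2a5, whose coding sequence is nearly that of Cyp2a4 as printed above, was at 215, 390 and 74.6 TPM in preparations and 103 and 130 TPM in spheroids, which overlapped, and was not called (-1.25, edgeR adjusted p = 0.141).

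The other members called higher were Cyp2a22, by 1.91 (edgeR adjusted p = 0.026), and Cyp2c38, by 1.84 (edgeR adjusted p = 0.04996). Cyp2c38 was at 126, 105 and 26.6 TPM in preparations and 240 and 503 TPM in spheroids. Its call was lost without either spheroid sample and without preparation 2 or 3, and that of Cyp2a22 without spheroid 2 or preparation 2 or 3. With all 5 groups in 1 fit the calls of Cyp2a4, Cyp2b9 and Cyp2a22 were lost, limma-voom did not call Cyp2a22 or Cyp2c38, and DESeq2 did not call Cyp2c38.

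The deepest falls were in 3 Cyp2c genes that lie side by side on chromosome 19 and metabolise arachidonic acid. Cyp2c54 was at 226, 573 and 491 TPM in preparations and 1.29 and 2.73 TPM in spheroids. Cyp2c50 was at 303, 595 and 494 TPM against 7.56 and 5.52 TPM, and Cyp2c37 at 164, 512 and 272 TPM against 4.58 and 5.29 TPM. Both spheroid samples lay far below every preparation, and the log2 fold changes were -8.04 (SE 0.64, edgeR adjusted p = 0.00031), -6.48 (SE 0.42, edgeR adjusted p = 0.000123) and -6.31 (SE 0.61, edgeR adjusted p = 0.000718). These 3 genes share stretches of sequence with one another, so that the division of reads among them is uncertain.

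Members with few or no such shared stretches fell as well. Cyp2c23, an epoxygenase, was at 593, 751 and 760 TPM in preparations and 24.4 and 37.3 TPM in spheroids (-4.82, SE 0.34, edgeR adjusted p = 0.000166). Cyp2j5 was at 951, 928 and 968 TPM against 40.5 and 136 TPM (-3.70, SE 0.55, edgeR adjusted p = 0.00319), and Cyp2c55, a hydroxylase of arachidonic acid, at 29.5, 73.3 and 27.04 TPM against 8.76 and 2.82 TPM (-3.23, SE 0.59, edgeR adjusted p = 0.00758). The groups stood apart for all 3. Cyp2u1, a fatty acid hydroxylase, fell from 60.9, 56.2 and 70.8 TPM to 12.04 and 7.52 TPM, and Cyp2j9 and Cyp2d40 were lower by 2.86 and 2.30. Cyp2d40, unlike the rest, shares 24.1% of its stretches with other genes.

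Not all CAR-responsive members moved with Cyp2b10. Cyp2c29 was at 729, 1148 and 959 TPM in preparations and 813 and 970 TPM in spheroids, inside the same range (-0.40, edgeR adjusted p = 0.321), and Cyp2c37 and Cyp2c55 were the lower genes just given. Cyp2d9 was at 929, 1218 and 1115 TPM against 540 and 666 TPM, called lower by 1.17 (edgeR adjusted p = 0.0135), without overlap. The remaining lower members were Cyp2c69, Cyp2d34 and Cyp2c67, with log2 fold changes from -3.99 to -2.12. The call was lost without spheroid 1 for Cyp2d9, Cyp2c67, Cyp2c69 and Cyp2d34, without spheroid 2 for Cyp2c69 and Cyp2d34, and without preparation 3 for Cyp2c67 and Cyp2c69. Scaling by library size alone also lost the calls of Cyp2d9 and Cyp2c69, all 5 groups in 1 fit that of Cyp2d9, and limma-voom that of Cyp2c69. Where a spheroid sample was left out, the one that remained was assumed to vary like the preparations.

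**Figure D3:**
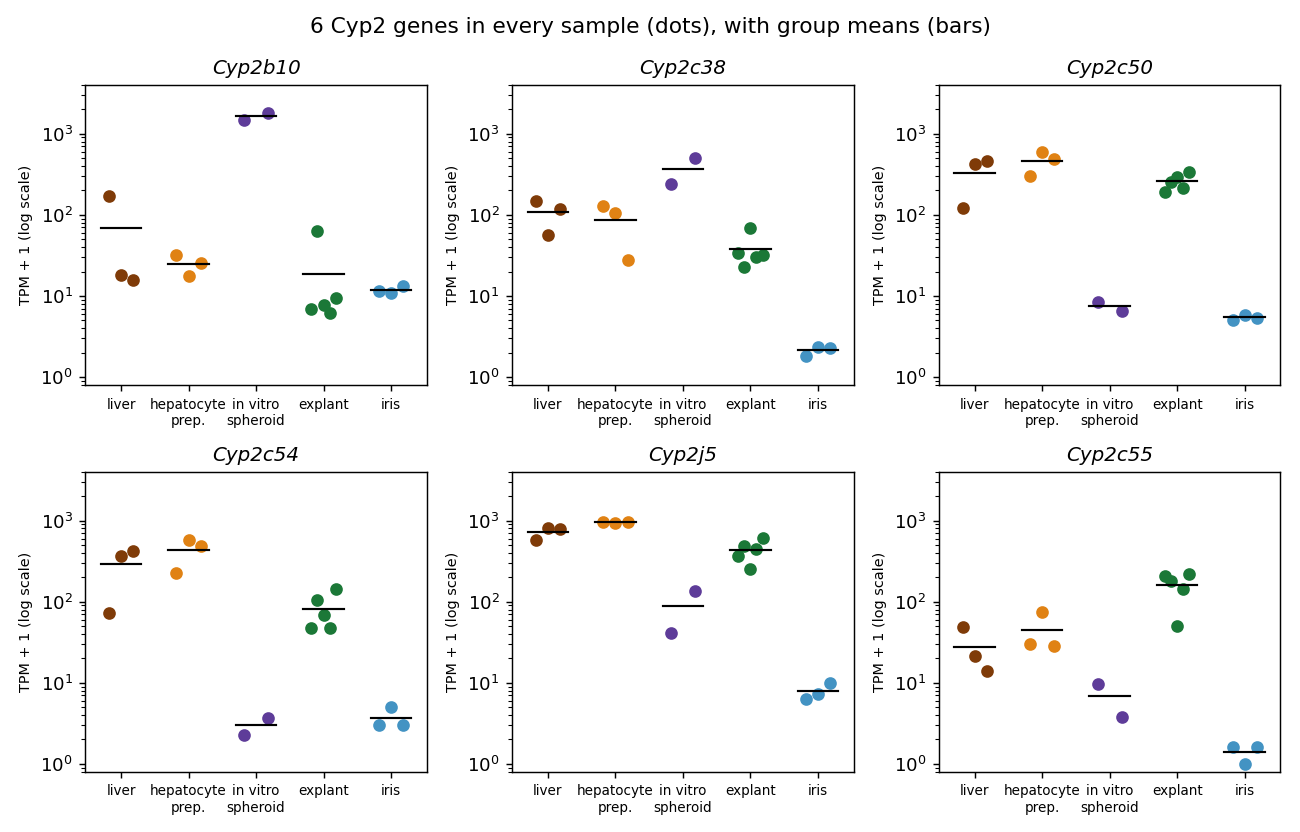
Each panel gives 1 Cyp2 gene, with a dot for every sample and a bar for the group mean, on a log axis of TPM + 1. The spheroids lie above all other groups for Cyp2b10 (1487 and 1798 TPM) and far below livers, preparations and explants for Cyp2c50 and Cyp2c54, and the explants are highest for Cyp2c55 (48.5 to 221 TPM).

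Lists of partner genes, chosen with earlier results of these data known, were counted in the same samples, where 8.13% of all genes were called higher and 9.11% lower. Of 18 transcription factors that act on Cyp2 genes 17 were tested, 1 was higher and 7 were lower. The receptor gene Nr1i3 itself was at 164, 208 and 146 TPM in preparations and 54.8 and 102 TPM in spheroids (-1.43, SE 0.33, edgeR adjusted p = 0.0187), Cebpa was lower by 2.70 and Nr0b2, a repressor of nuclear receptors, by 4.92. Of 14 redox partners and genes of haem synthesis, Hmox1, which degrades haem, was higher by 1.68 and 4 were lower, Cyb5b, Alas1, Alad and Cpox, by 1.11 to 2.04. Of 25 other liver P450 genes 21 were tested, Cyp17a1 and Cyp39a1 were higher and 9 were lower, led by Cyp4a12b (-7.58) and Cyp4a12a (-6.98), which are known as male-biased. Of the 10 hepatocyte markers none was called. Summed macrophage markers were 159 to 281 TPM in preparations and 641 to 753 TPM in spheroids, with 3 of 8 called higher and none at 0, and their part in these results was not tested.

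Corrected explants were set against the spheroids in vitro, to see how grafts on the iris compare with cultured ones, by limma on log2(TPM + 1), on which scale low genes show less change. Of the 36 members 6 were called higher and 2 lower, beside 5.16% and 1.09% of 20601 genes. The median log2 difference was -0.32 over members and 0.47 over all genes. The explants are the same samples in this comparison and in the 2 that follow, and the comparisons with spheroids or preparations share those groups with the one above. Their results are therefore not independent.

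Cyp2c50 was at 191, 256, 292, 215 and 341 TPM in explants 1, 2, 4, 5 and 6, against the 7.56 and 5.52 TPM of the spheroids. Cyp2c54 was at 45.8, 104, 68.4, 46.7 and 142 TPM and Cyp2c37 at 46.5, 28.1, 237, 41.9 and 64.3 TPM, also above both spheroids. The differences were 5.09 (SE 0.32, limma adjusted p = 0.00054), 4.67 (SE 0.56, limma adjusted p = 0.00434) and 3.39 (SE 0.77, limma adjusted p = 0.041). Cyp2c23, at 271, 493, 471, 383 and 507 TPM, was higher by 3.74 (SE 0.32, limma adjusted p = 0.00118). Cyp2j5, at 370, 488, 251, 445 and 603 TPM, was higher by 2.46 (SE 0.49, limma adjusted p = 0.0262), and Cyp2c55, at 209, 181, 48.5, 142 and 221 TPM, by 4.55 (SE 0.66, limma adjusted p = 0.00827). Every explant lay above both spheroids for all 6 genes.

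Cyp2b10 was at 5.90, 62.2, 6.76, 5.12 and 8.52 TPM in corrected explants. Explant 2 stood above the others, and all 5 lay far below both spheroids (-7.16, SE 0.88, limma adjusted p = 0.00475). Before correction the values were 10.1, 27.4, 10.2, 9.33 and 9.96 TPM, beside 10.5, 10.03 and 12.4 TPM in the irises, so that in 4 of 5 explants Cyp2b10 did not stand above the iris level. Cyp2c38, at 32.7, 22.1, 68.5, 29.6 and 31.3 TPM, was lower by 3.31 (SE 0.49, limma adjusted p = 0.00897). The calls of Cyp2b10, Cyp2c38 and Cyp2c55 were lost without either spheroid sample, that of Cyp2c54 without spheroid 1, that of Cyp2j5 without spheroid 1 or explant 1, 2 or 5, and that of Cyp2c37 without either spheroid or explant 1, 5 or 6. With explant 4 as deposited both Cyp2c37 and Cyp2j5 were not called, and Cyp2j5 was not called with TMM or before correction, where its difference was 0.62.

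Set against the livers, 1 of 36 members was called higher in corrected explants and 4 were called lower, beside 12.1% and 3.18% of 20656 genes. The median log2 difference was -0.49 over members and 0.57 over all genes, so members lay low relative to the bulk of genes. With TMM factors applied to the TPM the median over all genes was 0.24, 1908 genes were higher and 1245 lower in place of 2496 and 656, and 10 members were called lower, the 4 with Cyp2c23, Cyp2c29, Cyp2c67, Cyp2c69, Cyp2d26 and Cyp2d34. With the iris share estimated by regression instead, 1 member, Cyp2d22, was called lower.

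Cyp2c55 was the member called higher. It was at 47.8, 20.1 and 12.9 TPM in livers and at 209, 181, 48.5, 142 and 221 TPM in explants, from 39 to 379 counts per explant and 0 to 2 counts per iris. The lowest explant, explant 4, lay just above the highest liver, liver 1 (2.56, SE 0.57, limma adjusted p = 0.0176). The call was lost without liver 2 or liver 3, and before correction the difference was 0.69 and was not called.

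The 4 lower members were Cyp2d40, Cyp2c38, Cyp2d22 and Cyp2a5. Cyp2d40 was at 105, 460 and 347 TPM in livers and 37.6, 63.7, 90.2, 68.1 and 80.0 TPM in explants, without overlap (-1.96, SE 0.49, limma adjusted p = 0.0264). Cyp2d22, a relative of the human drug-metabolising CYP2D enzyme, was at 375, 387 and 408 TPM against 171, 171, 114, 151 and 149 TPM (-1.38, SE 0.19, limma adjusted p = 0.00257), and irises held 78.2, 51.0 and 59.5 TPM of it. Cyp2a5, a coumarin hydroxylase, was at 526, 330 and 380 TPM against 111, 119, 165, 206 and 301 TPM (-1.26, SE 0.34, limma adjusted p = 0.0371). The groups did not overlap for Cyp2d22 or Cyp2a5, while for Cyp2c38 explant 4 exceeded liver 2, which held 56.2 TPM (-1.52, SE 0.44, limma adjusted p = 0.0463).

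These calls were not equally firm. With explant 4 as deposited, none of the 4 was called. Leaving out 1 sample at a time lost the call of Cyp2d40 without explant 5, liver 2 or liver 3, that of Cyp2a5 without any single liver or without explant 1, 2, 4 or 5, and that of Cyp2c38 without any single liver or without explant 1, 2, 5 or 6. The call of Cyp2d22 was lost in none of these. Cyp2c29, at 587, 876 and 779 TPM in livers and 217, 305, 81.8, 243 and 507 TPM in explants, did not overlap between groups and just missed the threshold (-1.67, SE 0.49, limma adjusted p = 0.051). Cyp2d26 passed the p threshold (limma adjusted p = 0.00797) at a difference of -0.66, inside the fold limit.

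**Figure D4:**
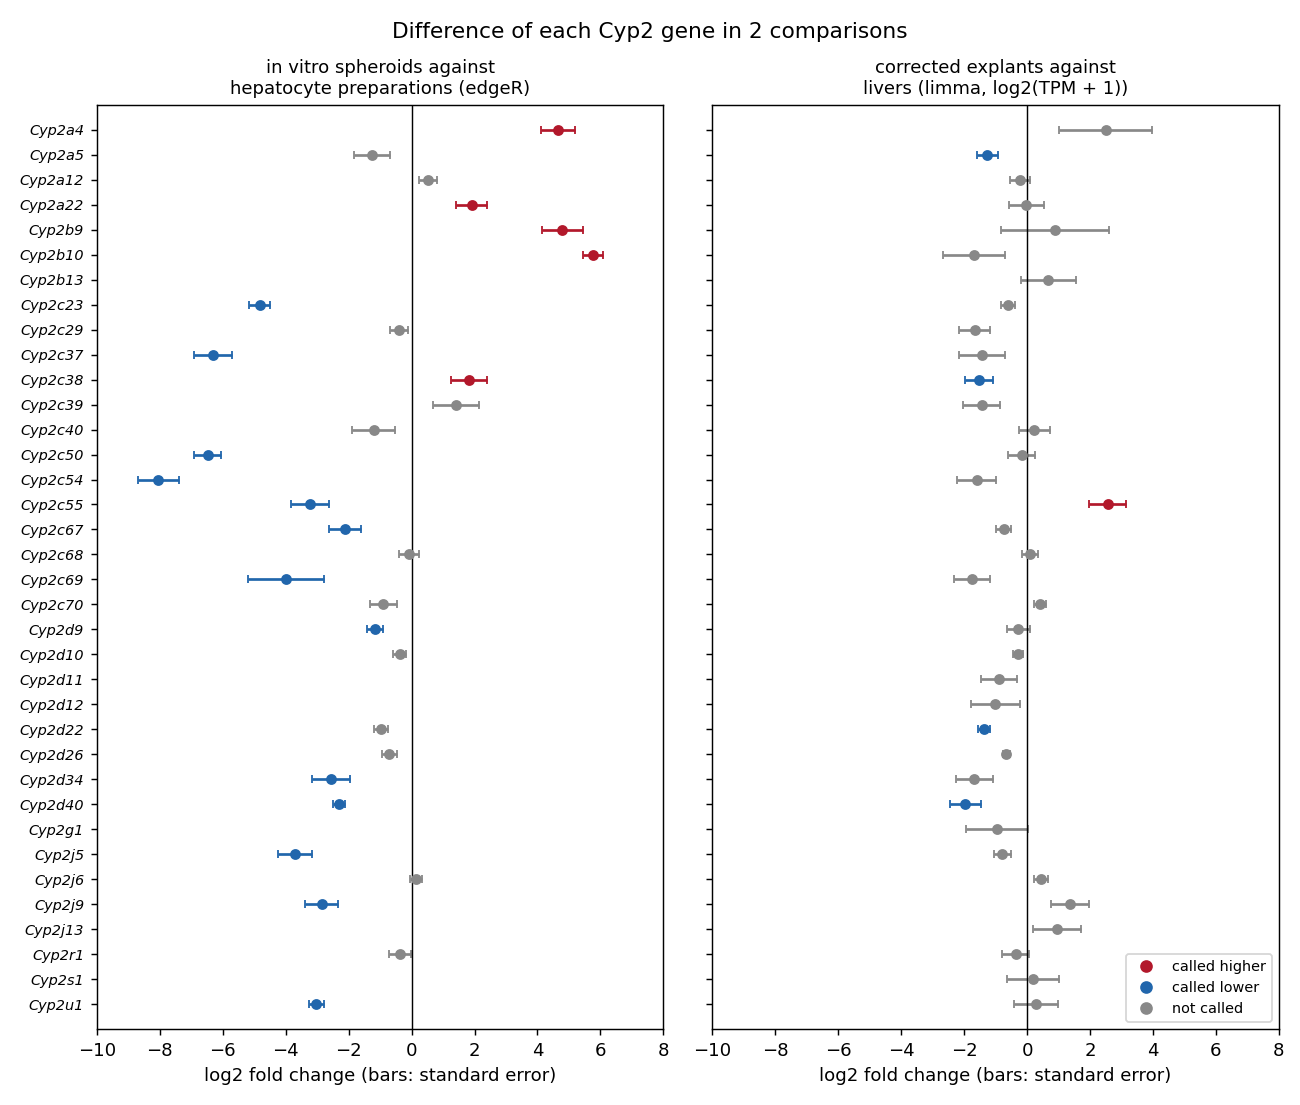
Dots give the log2 fold change of each Cyp2 gene and bars its standard error, for spheroids against hepatocyte preparations (left, edgeR on counts) and corrected explants against livers (right, limma on log2(TPM + 1)); red genes were called higher, blue lower and grey not called, and genes that did not pass the count filter have no dot. The left panel spans from -8.04 (Cyp2c54) to 5.77 (Cyp2b10), while called genes of the right panel span from -1.96 (Cyp2d40) to 2.56 (Cyp2c55).

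Set against the hepatocyte preparations, 3 of 36 members were called higher in corrected explants and 9 lower, beside 15.8% and 3.41% of 20629 genes, with a median log2 difference of -0.68 over members and 0.73 over all genes. Cyp2a4 was at 64.6, 42.6, 33.9, 39.8 and 119 TPM in explants, from 37, 46, 23, 45 and 176 counts, and at no more than 2.85 TPM in preparations (4.49, SE 0.60, limma adjusted p = 0.00118). Cyp2b9 was at 8.14, 17.2, 45.1, 6.47 and 8.22 TPM in explants and at no more than 1.49 TPM in preparations (3.19, SE 0.70, limma adjusted p = 0.0123). Explants lay above preparations without overlap for both genes. Cyp2c55 was higher by 1.84 (SE 0.54, limma adjusted p = 0.0427), but explant 4 lay below preparation 2.

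The lowest difference was that of Cyp2c69, at 4.35, 48.9 and 8.13 TPM in preparations and 0, 0, 1.93, 1.14 and 0.332 TPM in explants (-3.14, SE 0.80, limma adjusted p = 0.0235), a gene that shares over 50% of its stretches with neighbours. Cyp2d40 (-2.52), Cyp2c54 (-2.42), Cyp2d34 (-2.39), Cyp2c37 (-2.20), Cyp2c29 (-1.999), Cyp2c67 (-1.42), Cyp2d22 (-1.41) and Cyp2j5 (-1.19) were also called lower. Of these, Cyp2c37 overlapped between groups through explant 4. The call was lost without any single preparation for Cyp2c29, Cyp2c37 and Cyp2d34, without preparation 1 or 3 for Cyp2j5 and Cyp2c55, and without preparation 2 or 3 for Cyp2b9 and Cyp2c69. It was also lost without explant 1, 2, 5 or 6 for Cyp2c37 and Cyp2c55. With the iris share from regression Cyp2c29, Cyp2c37, Cyp2c67, Cyp2c69, Cyp2d34 and Cyp2j5 were not called, and Cyp2c55 was not called with TMM or before correction.

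Partner genes in corrected explants were lower in part. Of all genes, 12.1% were called higher and 3.18% lower against livers. Those shares were 15.8% and 3.41% against preparations, and 5.16% and 1.09% against spheroids. Por, the reductase that supplies the Cyp2 enzymes with electrons, was at 532, 396 and 511 TPM in livers, 351, 235 and 92.4 TPM in preparations, 300 and 304 TPM in spheroids and 40.8, 57.6, 87.9, 77.0 and 110 TPM in explants. Explants were lower than livers by 2.73 (SE 0.32, limma adjusted p = 0.00142) and than spheroids by 2.08 (SE 0.40, limma adjusted p = 0.0225), while against preparations Por was not called and explant 6 lay above preparation 3. Irises held 166 to 173 TPM of it, more than the corrected explants. Of the 14 genes of that list, 2 were higher and 3 lower against livers (Cyb5a and Cpox with Por), 1 higher and 2 lower against preparations, and none higher and 1 lower against spheroids. Of 18 transcription factors, none was higher and 6 were lower against livers, among them Cebpa (-2.04) and Rxra (-1.97), 1 was higher and 7 lower against preparations, and none was called against spheroids. Of 23 other P450 genes tested, 0 were higher and 7 lower against livers, 0 and 8 against preparations, and 2 and 3 against spheroids.

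Other markers moved with the explants. Iris markers summed to 243 to 3168 TPM in corrected explants and 399 to 408 TPM in livers, macrophage markers to 715 to 2602 and 441 to 566 TPM, cholangiocyte markers to 618 to 1404 and 282 to 561 TPM, and stellate cell markers to 349 to 461 and 137 to 177 TPM. Markers of sinusoidal endothelium summed to 24.8 to 130 and 223 to 296 TPM. In the irises, iris markers summed to 7750 to 8194 TPM, macrophage markers to 287 to 300 and cholangiocyte markers to 923 to 1037. Stellate markers summed there to 292 to 328 TPM and endothelial markers to 22.7 to 27.1. Within a list the genes did not all go 1 way. Against livers, 4 of 8 macrophage markers were called higher and 1 lower, and 2 of 5 stellate markers higher and 1 lower. Among these lists, 1 of 10 iris markers, which was at 0 in the irises too, and 1 of 5 stellate markers were at 0 in all corrected explants. The part of other cells in the results was not tested.

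In the explants as sequenced, without correction, most members stood above the iris level. By edgeR on counts, 22 of 29 members that passed the filter were called higher in explants than in irises and 0 lower, beside 6.16% and 0.316% of 16764 genes. At an unadjusted p below 0.05, where all genes were not counted, the count of lower members was also 0. With DESeq2 and limma-voom it was 0 as well, beside 68 and 42 of all genes. The irises had no part in the mean that chose the members, so the choice favoured genes of the liver-derived samples over genes of the iris. These counts are therefore partly set by the choice. The median log2 fold change was 3.45 over members and 0.01 over all genes. All 4 Cyp2a genes, all 11 tested Cyp2c genes and 4 of 5 tested Cyp2d genes were called higher. The count was 13 without iris 1 or iris 3, 15 without iris 2 and 13 with limma-voom. All genes called higher fell too, from 1032 to 554 without iris 1, 575 without iris 3, 604 without iris 2 and 541 with limma-voom.

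Cyp2a22 had 15, 37, 9, 17 and 46 counts in the explants and none in the irises. Set against a floor of 3 counts over the 3 irises, it was at least 19.8-fold higher. Cyp2a4 had 37, 46, 23, 45 and 176 counts against 0, 1 and 0, a ratio of 157 after division by the sample totals (95% interval 27.9 to 6.21e+03, counting error only). The lowest of the called changes was that of Cyp2d40, at 21, 52, 48, 59 and 85 counts against 3, 9 and 9 (2.66, SE 0.52, edgeR adjusted p = 0.0113). All explants lay above all irises for these 3 genes. Among the 7 members too low to be tested, Cyp2g1 had 32 counts over the explants, 28 of them in explant 6, and none over the irises, at least 5.11-fold more.

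The iris had its own Cyp2 expression. In the 22 members called higher the iris mean was at most 4.17% of the mean of all 3 livers, whereas it was 16.3% for Cyp2b10, 16.1% for Cyp2d22, 78.4% for Cyp2j6, 129% for Cyp2u1, 209% for Cyp2s1 and 413% for Cyp2j9. Liver 1 set the liver mean of 3 of these genes: livers 2 and 3 held only 1.64 and 0.384 TPM of Cyp2a4, 0.375 and 0 TPM of Cyp2b9 and 17.3 and 14.99 TPM of Cyp2b10, so for Cyp2b9 and Cyp2b10 the irises were near those livers. Cyp2j6, a fatty acid epoxygenase of many tissues, was at 79.7, 84.0 and 74.0 TPM in irises, 103, 102 and 97.7 TPM in livers, 123, 134 and 131 TPM in preparations, 165 and 189 TPM in spheroids and 164, 109, 127, 140 and 158 TPM in corrected explants. It was called in no comparison. Cyp2j9 was at 37.04, 32.5 and 35.6 TPM in irises and 12.3, 4.85 and 8.30 TPM in livers, with corrected explants at 51.4, 11.7, 42.2, 17.6 and 11.4 TPM. Cyp2u1 was at 58.5, 48.5 and 46.3 TPM in irises, 11.2, 54.4 and 53.0 TPM in livers and 60.9, 33.3, 87.9, 39.3 and 12.6 TPM in corrected explants. For the 7 members not called (Cyp2b10, Cyp2d22, Cyp2j6, Cyp2j9, Cyp2j13, Cyp2s1 and Cyp2u1), a larger part of the corrected level depends on the iris values subtracted. The iris samples also held 753 to 861 TPM of albumin RNA, so the low levels of the other members there were accompanied by the marker RNA of hepatocytes, and the part of that RNA was not tested. Of the partner lists, 0 of 14 redox and haem genes, 7 of 15 transcription factors and 11 of 21 other P450 genes were higher in explants. None was lower, where 6.16% of all genes were called higher and 0.316% lower.

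Isolation itself was examined by comparing the hepatocyte preparations with the livers. No member was called among the 30 tested with edgeR, beside 0.409% of 12236 genes called higher and 2.31% called lower. At an unadjusted p below 0.05, 8 members were higher and 0 lower. All genes were not counted at that threshold, so these counts have no share to stand beside. DESeq2 called Cyp2c69 higher and limma-voom called none. The median log2 fold change was 0.48 over the members and 0.01 over all genes. Cyp2c40 was at 16.4, 6.91 and 11.7 TPM in livers and 14.8, 67.5 and 14.1 TPM in preparations, and Cyp2c69 at 3.94, 3.18 and 5.59 against 4.35, 48.9 and 8.13 TPM. Preparation 2 alone set both differences apart: their log2 fold changes were 1.59 and 2.38 with it and 0.48 and 0.70 without it. Without preparation 1, Cyp2c67 and Cyp2c70 were called higher. Among markers of other liver cells, 3 of 4 cholangiocyte, 3 of 5 stellate, 1 of 5 sinusoidal endothelial and 1 of 8 macrophage genes tested were called lower in the preparations.

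Liver 1 stood apart from livers 2 and 3 in the sex-biased members. It held 248 TPM of Cyp2a4, where livers 2 and 3 held 1.64 and 0.384 TPM. It held 307 TPM of Cyp2b9 against 0.375 and 0 TPM, and 4.83 TPM of Cyp2b13 against 0 and 0 TPM. Cyp2b10 followed, at 169 TPM against 17.3 and 14.99 TPM, while Cyp2d9 was at 366 TPM against 1115 and 1077 TPM. Thus 3 of the 5 female-biased members were high in liver 1 and the male-biased member was low. Cyp2c40 and Cyp2c69, the other two female-biased members, were at 16.4 and 3.94 TPM there, near the other livers. Cyp2c37 (63.0 against 250 and 291 TPM), Cyp2c50 (121 against 420 and 455 TPM), Cyp2c54 (72.1 against 368 and 425 TPM) and Cyp2u1 were low in liver 1 as well.

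Genes of the fixed lists that are known as sex-biased differed in part. Cyp4a12a was at 35.4 TPM in liver 1 and 348 and 336 TPM in livers 2 and 3, Cyp7b1 at 81.4 against 430 and 507 TPM, Cux2 at 2.14 against 0.140 and 0 TPM, and Cyp17a1 at 384 against 19.5 and 21.6 TPM. The female-biased Cyp3a41a and Cyp3a41b were at 0 in all 3 livers. Cyp3a41a was at 0 in every other sample too and Cyp3a41b did not exceed 0.741 TPM in any, so neither gene can tell the livers apart. Cyp3a16 and Cyp3a44 reached 4.43 and 3.20 TPM in liver 1 and no more than 1.52 TPM in the others. Ddx3y was at 49.9, 49.96 and 54.7 TPM in livers 1 to 3, and Xist at 0.117, 0.0393 and 0.0368 TPM. By these sex-chromosome genes liver 1 was therefore like the other livers.

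The comparison of corrected explants with livers changed without liver 1: 3 members were called higher, with log2 differences of 4.84 for Cyp2a4, 3.57 for Cyp2b9 and 3.06 for Cyp2c55, and Cyp2c54 was called lower at -2.41. With all 3 livers the differences were 2.50 (SE 1.47, limma adjusted p = 0.28) for Cyp2a4, 0.89 (SE 1.72, limma adjusted p = 0.73) for Cyp2b9 and -1.60 (SE 0.62, limma adjusted p = 0.116) for Cyp2c54. Cyp2a4 and Cyp2b9 were thus at 33.9 to 119 and 6.47 to 45.1 TPM in the 5 explants, between liver 1 and the other livers. Cyp2b13 had 13 counts over the 5 explants and reached 8.21 TPM in explant 4. Cyp2d9 was at 486, 628, 796, 665 and 601 TPM in the explants, also between liver 1 and the other livers. Of the sex-chromosome genes, none of 4 tested was called between explants and livers by limma, though corrected values of single explants differed. Uty was at 20.3, 7.80, 23.6, 10.9 and 1.87 TPM in corrected explants and 3.95 to 6.13 TPM in livers. Before correction it was at 8.94 to 15.7 TPM in explants, beside 11.7 to 15.8 TPM in irises. Eif2s3y was at 0 in corrected explant 4 but at 43.5 TPM there before correction, below the 60.2 to 76.1 TPM of the irises. That 0 is a remainder under 0 that was set to 0.

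**Figure D5:**
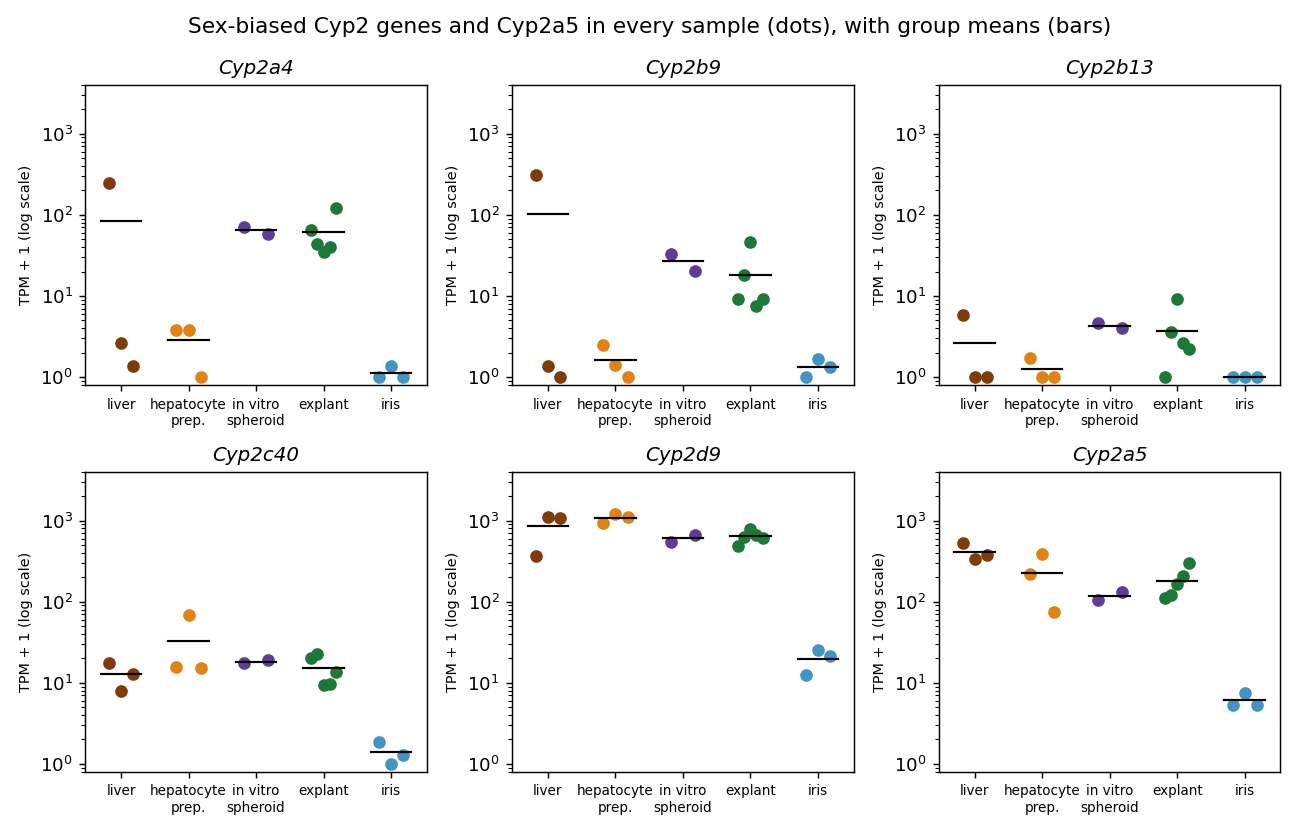
Each panel gives 1 gene, 4 female-biased members, the male-biased Cyp2d9 and Cyp2a5, with a dot for every sample and a bar for the group mean on a log axis of TPM + 1. Liver 1 is the high dot for Cyp2a4 (248 TPM) and Cyp2b9 (307 TPM) and the low dot for Cyp2d9 (366 TPM), and spheroids and explants lie above preparations for Cyp2a4 and Cyp2b9.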

How the data were processed

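RNA of 16 samples was measured with Smart-seq3. The authors aligned reads to mm10 with TopHat2, removed duplicates and, per the file headers, counted exon reads per gene with featureCounts, without strand and without multi-mapping reads; the deposited counts of 3 technical libraries per sample were summed. Depth was 2718518 to 6789648 counts per sample, so levels under a few counts are imprecise. TPM were deposited by the authors from those counts. The deposited iris-corrected values, recorded as a score because they are remainders of a subtraction, were made by the authors from explant TPM and an estimated iris share. Explant 4 was recalculated. Another 48 value columns were not used.

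Counts were tested with edgeR 4.0.16 (quasi-likelihood) and TPM with limma 3.58.1 on log2(TPM + 1), in R 4.3.3, each comparison on its own samples and all genes, with Benjamini-Hochberg adjustment, a threshold of 0.05 and a log2 fold limit of 1. Both methods were tried on counts simulated for the comparisons made with edgeR. The subtraction of iris was not simulated, so the comparisons of corrected explants were not covered. Alternatives were DESeq2 1.42.0, limma-voom, other filters, scalings, corrections and leaving out each sample. Deviations of same-numbered samples correlated from -0.109 to 0.109 in most comparisons and by 0.25 and 0.122 in the pairs of explants and spheroids. Only preparations against livers had 3 same-numbered pairs, at 0.0994, 0.0646 and -0.0362, so none was over 0.1. The other comparisons had 2 each, too few to settle whether a shared number marks a pair. Numbers were not taken as pairs, and fits with the number as a block are given below. Any member could be named; those with values in every sample were the top liver member of a subfamily, sex-biased, CAR-inducible and vitamin D genes, and the called extremes of each comparison, with others given for comparison. Members and lists were chosen with earlier results of these data known.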

Additional observations from a re-analysis of the deposited data

Results flagged for a closer look

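All 36 members were examined for a single explant far from the other 4, by the gap to the nearest explant over the whole range (limit 0.71). Chance alone gives about 1 in 20 such groups, and 6 members passed. Cyp2b10 was at 62.2 TPM in explant 2, where the next explant held 8.52 TPM (0.941). Explant 4 was the highest for 3 genes, Cyp2b9 at 45.1 TPM (next 17.2 TPM, 0.723), Cyp2c37 at 237 TPM (next 64.3 TPM, 0.826) and Cyp2c38 at 68.5 TPM (next 32.7 TPM, 0.771). Cyp2g1 was at 17.6 TPM in explant 6 (next 4.16 TPM, 0.764), and Cyp2j13 at 7.85 TPM in explant 1 (next 1.13 TPM, 0.856). Iris RNA made up 81% of explant 4, 82% of explant 1 and 68% of explant 2 by the deposited share.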

How the results depend on the processing

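The cause of the changes below was not tested. Counts of members called are given as higher and lower. Explants against irises gave 22 and 0, with 13 higher by limma-voom and 13 to 22 higher when 1 sample was left out. Over all genes, 1032 were higher, with 541 by limma-voom and 554 to 1199 when 1 sample was left out. Over all genes, preparations against livers gave 50 and 283. Those counts were 191 and 1014 without the count filter, 119 and 528 by DESeq2, and 217 and 923 with all 5 groups in 1 fit. Spheroids against preparations gave 996 and 1116 of all genes, with 961 higher by limma-voom and 1310 higher with all 5 groups. Among members, preparations against livers gave 0 and 0, with 2 and 4 without the count filter and 1 higher by DESeq2. They gave 1 and 2 with all 5 groups in 1 fit, and 0 to 2 higher with 1 sample left out. Spheroids against preparations gave 5 and 13, with 3 higher by limma-voom, 2 higher with all 5 groups in 1 fit, and 3 to 5 higher and 9 to 15 lower with 1 sample left out. Corrected explants against livers gave 1 and 4, beside 2496 and 656 of all genes. The lower count was 2 with all genes of the uncorrected table and 0 with explant 4 as deposited. It was 1 with the iris share from regression and 10 with TMM. The lower counts of all genes were 589, 300, 739 and 1245 in the same order. Before correction the member counts were 2 and 25, beside 7416 and 1617 of all genes. With 1 sample left out the member counts ran from 0 to 3 and from 1 to 5. Over all genes, corrected explants against preparations gave 3265 and 704. The lower count there was 390 for explant 4 as deposited and 766 by regression, and before correction the counts were 8700 and 1477. Against spheroids all genes gave 1064 and 224, with 1202 lower before correction and 653 lower with all 4 liver-derived groups. Against preparations the member counts were 3 and 9, with 5 lower for explant 4 as deposited and 3 lower by regression. The member counts were 5 and 24 before correction, and 1 to 3 and 4 to 9 with 1 sample left out. Against spheroids they were 6 and 2, with 21 lower before correction, 4 lower with all 4 liver-derived groups in 1 fit, and 2 to 7 and 0 to 2 with 1 sample left out.

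With the replicate number as a block, the member counts were 19 and 0 for explants against irises, beside 821 and 22 of all genes. Preparations against livers gave 0 and 0 members, beside 62 and 346 of all genes. Spheroids against preparations gave 4 and 14 members, beside 892 and 1093 of all genes. Corrected explants against livers, preparations or spheroids gave 0 and 0 members. In those fits no gene at all was called, because most samples share no number, so they say nothing particular about the members. The explants and spheroids of like number correlated by 0.25 and 0.122, in 2 pairs only, and otherwise the samples share only a number.

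Among differences called before or after the change of setting, sign changes came on TPM before correction: against livers Cyp2c40 (-1.31), Cyp2c68 (-1.77) and Cyp2c70 (-1.45), against preparations Cyp2c55 (-0.029), and against spheroids Cyp2c67 (-1.24), Cyp2c70 (-1.61) and Cyp2d9 (-1.73). Members called under neither setting changed sign elsewhere too, such as Cyp2a22 against livers (-0.024, and 0.60 without liver 1). Depth limits the members with few counts, such as Cyp2b13, Cyp2g1, Cyp2j13 and Cyp2s1, and the explants through their iris share.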
